A study of Mus musculus with 8 samples.

Results

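The genes described here are 36 mouse genes of mitosis and cell cycle progression, out of the 55487 genes listed for each library. They comprise cyclins, the kinase Cdk1, mitotic kinases, spindle and centromere proteins, enzymes of DNA synthesis and 3 transcription factors. They were taken by name, not by a threshold on these values. All 36 were listed in all 8 libraries and all 36 passed the filter on low values, which left 13032 genes.

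The libraries came from C57BL/6 mice carrying subcutaneous tumors of B16F10, a single pigmented melanoma line of this mouse strain. Dosing started when tumors reached about 50 mm3, 7 to 9 days after the tumor cells were injected. One group of 4 mice was injected intraperitoneally with tacrolimus at 3 mg/kg every 5 days, and a group of 4 control mice with vehicle on the same schedule. Tacrolimus (FK506) inhibits calcineurin, the phosphatase through which T cell receptor signals activate NFAT. Tumors of both groups were removed 6 days after the first dose and digested, cells were sorted by flow cytometry as CD8+ lymphocytes, and 1 RNA library was sequenced per mouse. Levels are FPKM, read fragments per kilobase of transcript relative to the library total. A difference is the tacrolimus mean less the vehicle mean of log2(FPKM + 1).

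A dividing cell switches these genes on in order. E2F transcription factors, held back by RB proteins until D-type and E-type cyclins act with their kinases, switch on genes of DNA replication at the border of G1 and S phase. B-MYB, FOXM1 and the MuvB core complex then drive the mitotic genes, many through promoter elements called CCAAT boxes and the cell cycle genes homology region (CHR). Both activated CD8+ T cells and melanoma cells divide and express these genes, and in bulk RNA fewer cells of a type and less RNA per cell cannot be told apart.

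The content of the libraries goes against their label of sorted CD8+ lymphocytes, a sort that should remove melanoma cells. Melanoma transcripts exceeded T cell transcripts in all 8, and the sources used here do not say why, so the cell of origin of the levels below is not known. T cell markers were present in every library but spanned a wide range. The summed FPKM of 20 T cell markers was 588, 79.8, 317 and 349 in tacrolimus replicates 1 to 4, and 2854, 584, 831 and 792 in vehicle replicates 1 to 4. The sum of 15 melanoma markers lay between 19911 and 35769, and the sum of 12 macrophage markers between 234 and 1782. No marker on these 3 lists was at 0 in any library. Cd8a, the CD8 alpha chain, was 45.0-fold higher in vehicle replicate 1 than in tacrolimus replicate 2. All 20 T cell markers and all 12 macrophage markers had a lower mean with tacrolimus, as did 12 of the 15 melanoma markers, with median differences of -1.79, -1.08 and -0.30. After median-of-ratios scaling of the libraries the counts were 20 of 20, 12 of 12 and 8 of 15. None of these markers was called at an adjusted p under 0.05 (limma, Benjamini-Hochberg), and 18 T cell, 8 macrophage and 0 melanoma markers had an unadjusted p under 0.05, against 17.4% of all genes tested. After median-of-ratios scaling these were 12, 2 and 0, against 11.3% of all genes. The part of these cell types in the differences below was not tested. Fits with a marker level added are given there as descriptions.

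The cell cycle genes were far steadier across libraries than the T cell markers. Their summed FPKM was 2175, 2527, 2390 and 2863 with tacrolimus and 2248, 3266, 2492 and 2445 with vehicle, a 1.5-fold span against a 35.8-fold span for the T cell sum and 1.80-fold for the melanoma sum. The groups overlapped, with vehicle replicate 2 highest and tacrolimus replicate 1 lowest. For a single cell cycle gene the highest of the 8 values was between 1.40 and 2.83 times the lowest, with a median of 1.88. Vehicle replicate 2 held the highest value of 27 of the 36 genes as deposited, but of 11 after median-of-ratios scaling, where it also held the lowest value of 5. The mean log2 level of the 36 was then 5.36, 5.336, 5.38 and 5.46 in tacrolimus replicates 1 to 4. In vehicle replicates 1 to 4 it was 5.06, 5.343, 5.23 and 5.16. Of the vehicle libraries only replicate 2 lay above any tacrolimus library, namely tacrolimus replicate 2.

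**Figure D1:**
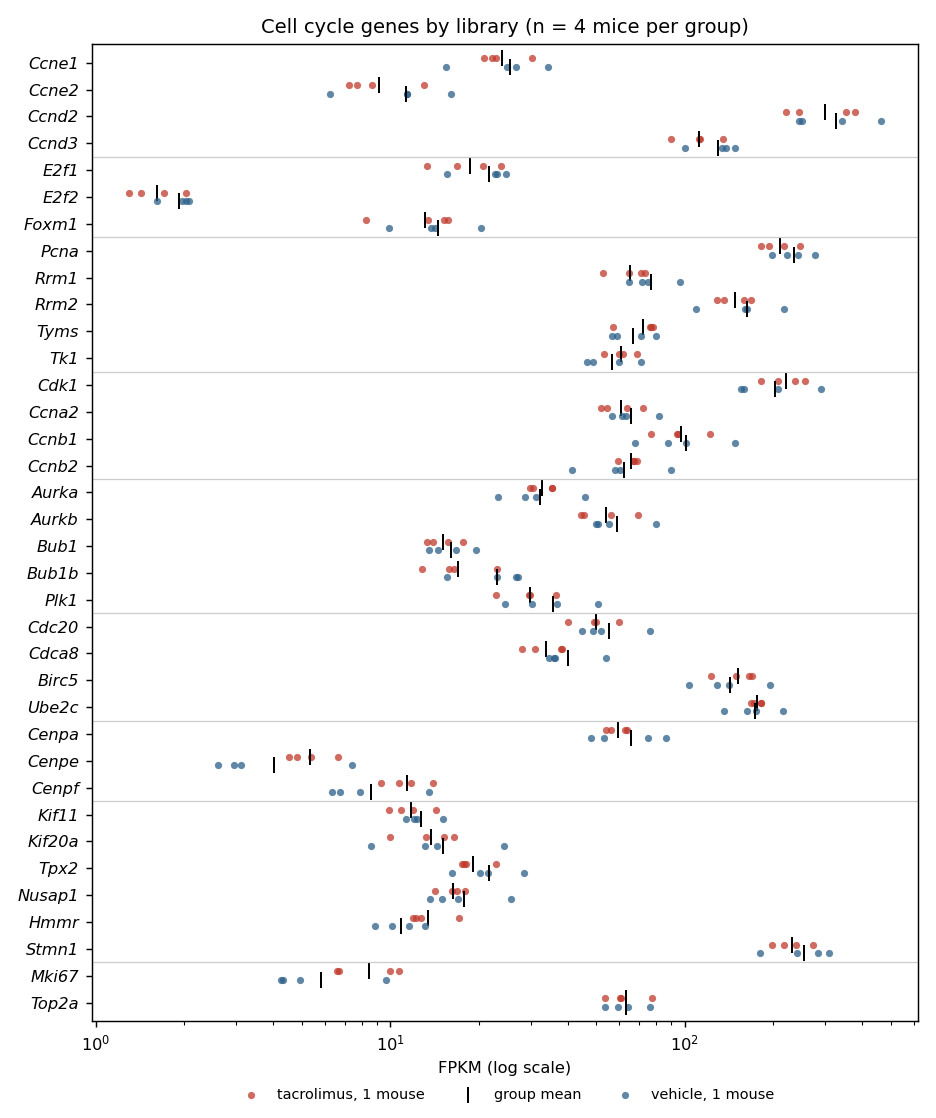
FPKM of each cell cycle gene in each of the 8 libraries on a log axis, grouped by role, with tacrolimus and vehicle libraries in different colors. The points of the 2 groups, from values as deposited, overlap for all 36 genes.

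The first comparison was tacrolimus against vehicle. No cell cycle gene was called at an adjusted p under 0.05 in the limma fit over all genes, in which 0% of the genes tested were called. The smallest adjusted p of a cell cycle gene was 0.335, and the smallest over all genes was 0.139. At an unadjusted p under 0.05 the fit held 0 of the 36 genes, against 17.4% of all genes tested. In the deposited values the groups were separated, with no overlap, for 0 of the 36 genes against 11.0% of all genes. Here and below, separation and overlap were read in the deposited values only, not after scaling. By mean log2 value 25 of the 36 were lower with tacrolimus and 11 higher, whereas after median-of-ratios scaling 4 were lower and 32 higher. Without vehicle replicate 2 alone, 15 were lower and 21 higher, with a median difference of 0.03. With all 8 libraries the median difference of the 36 was -0.10, beside -0.19 for all genes tested, and 75.7% of all genes had a lower mean with tacrolimus. Median-of-ratios scaling moved the median of all genes to 0.01 and that of the cell cycle genes to 0.12. Under both scalings the median of the cell cycle genes thus lay above that of all genes, by about the same amount. The 95% confidence intervals of the 36 differences ran from -0.91 at the lowest to 1.12 at the highest, and 34 of the 36 intervals lay within 1 log2 unit of no change.

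**Figure D2:**
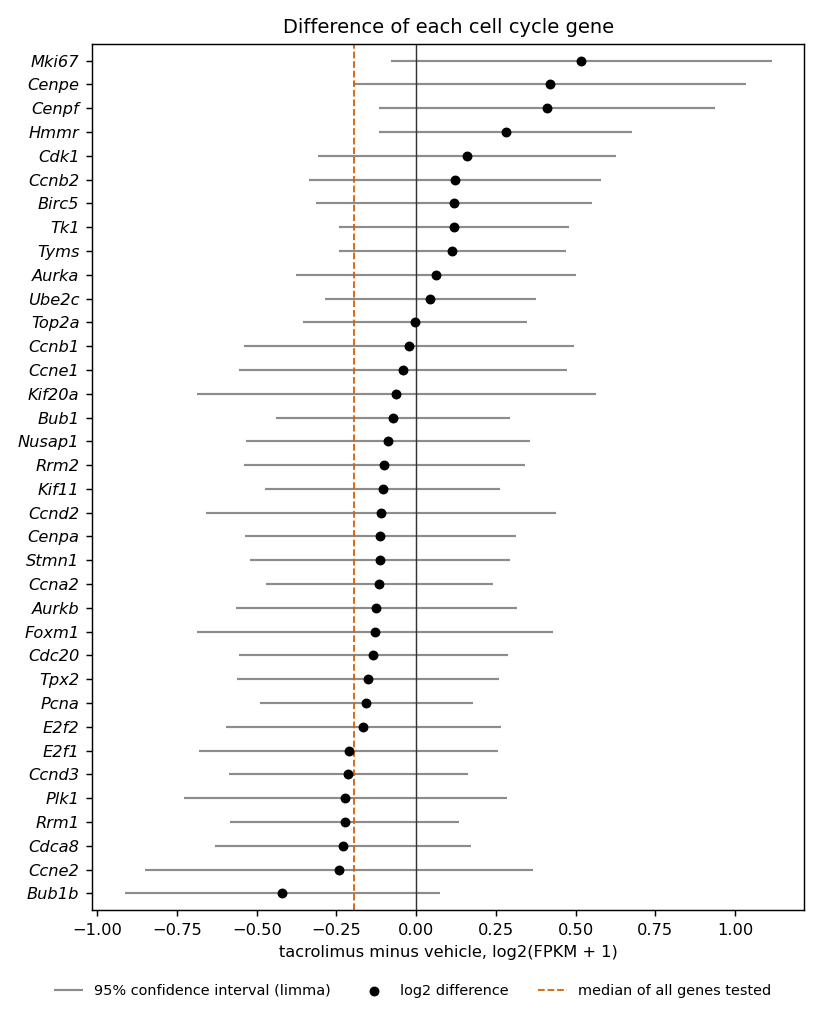
Difference of each cell cycle gene, the tacrolimus mean less the vehicle mean of log2(FPKM + 1), with its 95% confidence interval from limma and a line at the median of all genes tested. Every interval includes 0, from Bub1b at -0.42 to Mki67 at 0.52.

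Among Cdk1 and the cyclins that act at mitosis, levels overlapped and the order of the group means differed from gene to gene as deposited, with 2 of 4 lower with tacrolimus. After median-of-ratios scaling 0 of 4 were lower, with a median difference of 0.28. Cdk1, the kinase that drives entry into mitosis (GRCm38 chr10:69335146-69352938), was at 182, 208, 257 and 237 FPKM with tacrolimus and 155, 290, 207 and 158 with vehicle. Its means were 221 ± 32.7 and 203 ± 63.0 (SD, n = 4 mice each), and both the highest and the lowest value belonged to vehicle mice. Ccnb1, the cyclin B1 partner of Cdk1 (chr13:100778650-100786570), was at 76.9, 94.5, 94.2 and 122 with tacrolimus and 67.8, 148, 101 and 87.7 with vehicle. The vehicle values again enclosed the tacrolimus values. Ccnb2, cyclin B2, ranged from 41.5 to 89.4, and Ccna2, cyclin A2, which acts in S phase and early mitosis, from 52.1 to 81.8.

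The 4 cyclins of G1 and the G1 to S transition had lower means with tacrolimus as deposited, without separation of the groups. After median-of-ratios scaling 1 of 4 had a lower mean. Ccnd2 encodes a D-type cyclin induced by growth signals (chr6:127125162-127152193). It was at 243, 352, 221 and 377 FPKM with tacrolimus and 243, 343, 250 and 463 with vehicle, means of 298 ± 77.8 and 325 ± 103 (SD, n = 4). Ccnd3, the D-type cyclin prominent in lymphocytes (chr17:47505051-47599691), was at 112, 135, 89.6 and 112 against 100, 148, 138 and 134. The Ccnd3 difference was -0.21 (SE 0.17, limma adjusted p = 0.510) and changed sign, to 0.02 and 0.01, under median-of-ratios and upper-quartile scaling. Ccne1 and Ccne2, the E-type cyclins that activate Cdk2, ranged from 15.5 to 34.4 and from 6.26 to 16.1.

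Of the mitotic kinases, the checkpoint kinase Bub1b (BubR1, chr2:118598211-118641591) had the most negative difference among the 36 genes. It was at 16.5, 15.8, 12.9 and 23.0 FPKM with tacrolimus and 15.6, 27.1, 26.8 and 23.1 with vehicle, means of 17.0 ± 4.27 and 23.1 ± 5.35 (SD, n = 4). Vehicle replicate 1 lay among the tacrolimus values and the other 3 vehicle values above them. The difference was -0.42 (SE 0.22, 95% confidence interval -0.91 to 0.08, limma adjusted p = 0.345), and -0.20 after median-of-ratios scaling. Bub1, a kinase of the same checkpoint, ranged from 13.3 to 19.5. Aurka, which acts at spindle poles, ranged from 23.2 to 45.8, Aurkb, the kinase of the chromosomal passenger complex, from 44.3 to 79.8, and Plk1, which acts throughout mitosis, from 22.9 to 50.9. Vehicle replicate 2 held the highest value of all 5 kinases as deposited.

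Partners of Aurkb and genes of anaphase also had their highest deposited values in vehicle replicate 2. Cdca8 (borealin, a passenger complex subunit) was at 28.0, 38.0, 30.9 and 38.4 FPKM with tacrolimus and 34.6, 53.9, 35.9 and 36.2 with vehicle. Its difference was -0.23 (SE 0.18, limma adjusted p = 0.506), -0.0061 after median-of-ratios scaling and -0.08 without vehicle replicate 2. Birc5 (survivin, another passenger subunit) ranged from 104 to 194. Cdc20, which activates the anaphase-promoting complex, ranged from 40.3 to 76.2, and Ube2c, the ubiquitin-conjugating enzyme of that complex, from 136 to 216.

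The highest differences among the 36 genes were those of Mki67, Cenpe, Cenpf and Hmmr. Mki67 encodes Ki-67, a coat protein of mitotic chromosomes used as a proliferation marker (chr7:135689784-135716361). It was at 9.96, 6.71, 6.60 and 10.7 FPKM with tacrolimus and 4.94, 4.33, 4.27 and 9.71 with vehicle, means of 8.50 ± 2.15 and 5.81 ± 2.62 (SD, n = 4). All 4 tacrolimus values were above 3 of the vehicle values, and vehicle replicate 4 was above 2 of the tacrolimus values. The difference was 0.52 (SE 0.27, 95% confidence interval -0.08 to 1.12, limma adjusted p = 0.335), and 0.76 without vehicle replicate 4.

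A pair of centromere proteins also had low values in 3 vehicle libraries and a high value in vehicle replicate 4. Cenpf (CENP-F, chr1:189640606-189688086) was at 11.7, 9.31, 10.7 and 13.9 FPKM with tacrolimus and 7.87, 6.75, 6.32 and 13.6 with vehicle. Cenpe (CENP-E, a kinetochore motor, chr3:135212537-135273611) was at 5.38, 4.52, 4.84 and 6.66 against 2.61, 2.96, 3.12 and 7.39. For both genes 3 vehicle libraries lay below all tacrolimus libraries and vehicle replicate 4 lay near or above the highest tacrolimus value. The difference was 0.41 for Cenpf (SE 0.24, limma adjusted p = 0.376) and 0.42 for Cenpe (SE 0.28, limma adjusted p = 0.438). Without vehicle replicate 4 they were 0.63 and 0.70, both at an adjusted p of 0.303. Cenpa, the histone H3 variant of centromeres, ranged from 48.2 to 86.2, with the 2 highest and the 2 lowest values in vehicle mice.

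As deposited, spindle genes overlapped between the groups, with 5 of 6 lower by mean with tacrolimus. After median-of-ratios scaling 0 of 6 were lower. Hmmr, a microtubule-binding protein of the spindle (chr11:40701395-40733422), was at 12.2, 11.97, 12.7 and 17.1 FPKM with tacrolimus and 10.1, 11.5, 8.88 and 13.2 with vehicle. Its difference was 0.28 (SE 0.18, limma adjusted p = 0.419), and 0.49 after median-of-ratios scaling (limma adjusted p = 0.399). Tpx2, which activates Aurka on the spindle, ranged from 16.2 to 28.5, the motor Kif11 from 9.94 to 15.1 and the cytokinesis motor Kif20a from 8.6 to 24.4. Nusap1, a spindle-associated protein, ranged from 13.6 to 25.8, and Stmn1 (stathmin, which destabilizes microtubules) from 180 to 310. Top2a, the topoisomerase that untangles chromosomes (chr11:98992943-99024189), was at 60.3, 53.7, 60.7 and 77.3 against 53.5, 64.1, 59.2 and 76.0. Its means were 63.0 ± 10.1 and 63.2 ± 9.55, with a confidence interval of the log2 difference from -0.36 to 0.35.

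Genes of DNA synthesis overlapped between the groups as deposited as well, with 3 of 5 lower by mean with tacrolimus. After median-of-ratios scaling 0 of 5 were lower. Rrm1, the large subunit of ribonucleotide reductase (chr7:102441695-102469771), was at 53.0, 73.0, 64.8 and 70.8 FPKM with tacrolimus and 64.6, 96.0, 75.3 and 71.4 with vehicle. Its difference was -0.22 (SE 0.16, limma adjusted p = 0.471) and went to 0.0020 and 0.00058 under median-of-ratios and upper-quartile scaling. Rrm2, the small subunit (chr12:24708241-24714146), was at 136, 158, 129 and 168 against 110, 217, 162 and 160. Pcna, the sliding clamp of DNA polymerases, ranged from 182 to 277, Tyms (thymidylate synthase) from 56.8 to 79.7, and Tk1 (thymidine kinase 1) from 46.4 to 71.0. The differences of Tyms and Tk1 were 0.11 and 0.12, and each was 0.34 after median-of-ratios scaling (limma adjusted p = 0.413 each).

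Of the transcription factors, E2f1 (chr2:154559407-154569892) was at 16.8, 20.6, 13.3 and 23.8 FPKM with tacrolimus and 15.6, 24.8, 22.8 and 23.1 with vehicle. Foxm1, a driver of mitotic genes, ranged from 8.30 to 20.4. E2f2 (chr4:136172394-136196057) was the lowest of the 36 genes, at 2.03, 1.3, 1.43 and 1.70 with tacrolimus and 1.97, 1.61, 2.03 and 2.08 with vehicle. As deposited, the groups overlapped for all 3 factors.

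Adding the T cell marker level to the limma model left 0 of the 36 genes called and 4 at an unadjusted p under 0.05, each lower with tacrolimus (Rrm1, Rrm2, Cdca8 and Ccnd3), against 20.1% of all genes. The median difference of the 36 was then -0.26, beside -0.28 for all genes tested, and 18 of the 36 lay below that median of all genes. Adding the melanoma marker level left 0 called and 0 at an unadjusted p under 0.05, against 17.1% of all genes, while 349 of all genes tested were then called. In that fit 11 of the 36 were lower and 25 higher, with a median of 0.07, beside -0.11 for all genes. After median-of-ratios scaling 6 of the 36 had an unadjusted p under 0.05, all higher with tacrolimus (Mki67, Cenpf, Cenpe, Hmmr, Tyms and Tk1), against 11.3% of all genes in either direction and 5.69% of all genes higher, and 0 were called. In none of the alternatives run was any of the 36 genes called at an adjusted p under 0.05.

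The second comparison asked whether these genes follow the level of T cell or of melanoma transcripts. The level of a marker list in a library was the mean log2(FPKM + 1) of its markers, and spanned 4.66 log2 units for T cells against 0.77 for melanoma and 0.55 for the 36 genes. Vehicle replicate 1, with the highest T cell level, and tacrolimus replicate 2, with the lowest, were set side by side. T cell markers were 16.1 to 92.3 times as high in the former, with a median of 34.8, and macrophage markers had a median of 6.39. The 36 cell cycle genes had a median ratio of 0.853, from 0.565 to 1.60, and 29 of the 36 were lower in the library with more T cell transcripts. Melanoma markers had a median ratio of 0.75. No such ratio was taken over all genes. The 2 libraries also differ in treatment, so T cell level and tacrolimus cannot be told apart in this pair.

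**Figure D3:**
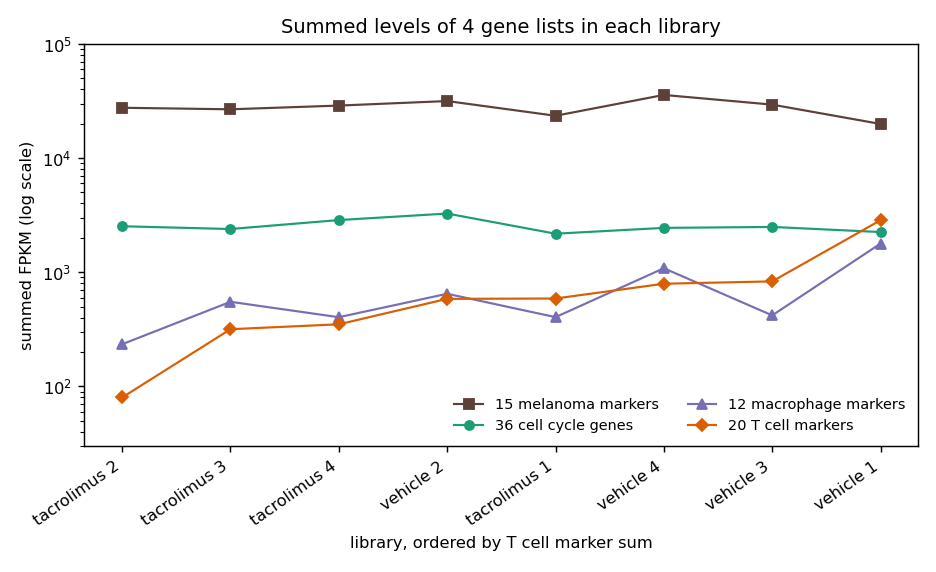
Summed FPKM of T cell markers, macrophage markers, melanoma markers and the 36 cell cycle genes in each of the 8 libraries, on a log axis. The T cell sum spans 35.8-fold and the cell cycle sum 1.5-fold.

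Across the 8 libraries the median Pearson correlation of the 36 genes was -0.19 with the T cell level and 0.61 with the melanoma level. The medians over all genes tested were 0.10 and 0.40. The order of the melanoma medians rests on vehicle replicate 1. Without it they were 0.52 for the 36 genes and 0.55 for all genes. Without the 2 libraries farthest from the median level they were 0.48 and 0.54. With any other single library left out, the melanoma median of the 36 genes stayed above that of all genes. For 32 of the 36 genes the correlation with the melanoma level was the higher of the pair, as for 62.2% of all genes. All these correlations share the same 8 libraries and their scaling. The T cell and melanoma levels themselves had r = -0.20 (exact permutation p = 0.650, adjusted p = 0.913, rho = -0.10, and r = 0.51 without the 2 libraries farthest from the median). T cell and macrophage levels had r = 0.82 (exact permutation p = 0.0129, adjusted p = 0.0387, rho = 0.48), and r = 0.22 without those 2 libraries, so that relation rests on them.

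Correlations with the T cell level were not called for any of the 36 genes, against 1.99% of all genes called in the positive and 0.00767% in the negative direction (exact permutation over all pairings of the 8 libraries, Benjamini-Hochberg over 13032 genes). E2f2 came nearest, with r = 0.78 and rho = 0.79 (exact permutation p = 0.0115, adjusted p = 0.189), and r was 0.86 without the 2 farthest libraries. Without those 2, Ccnd3 went from r = -0.19 to 0.79 and Bub1b from 0.17 to 0.62, whereas Cdk1 went from -0.51 to -0.62. The median of the 36 was then -0.03, beside 0.27 for all genes, and 19 of the 36 were below 0. No test was run on these 6 libraries. As deposited, it was the only one of the 36 with a positive r at an unadjusted p under 0.05, against 10.8% of all genes. After median-of-ratios scaling its r was 0.64 (exact permutation p = 0.0822, adjusted p = 0.397). E2f2 was low in all libraries, at 1.3 to 2.08 FPKM. The median of the 36 correlations rests in part on vehicle replicate 1, without which it was 0.01, beside 0.20 for all genes.

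Correlations with the melanoma level were called for 2 of the 36 genes, both positive, against 5.92% of all genes positive and 0.0921% negative. Rrm2 had r = 0.88 (exact permutation adjusted p = 0.0405) and rho = 0.93 (adjusted p = 0.0684), with r = 0.77 without the 2 farthest libraries. E2f1 had r = 0.89 (exact permutation adjusted p = 0.0474) and rho = 0.95 (adjusted p = 0.0590), with r = 0.87 without them. At an unadjusted p under 0.05 there were 15 of the 36, against 25.2% of all genes: Ccna2, all 4 G1 cyclins, Cdc20, Cdca8, Bub1b, Plk1, Rrm1, Rrm2, Kif20a, Tpx2, E2f1 and Foxm1. All 15 were positive, and 1.49% of all genes were negative at that p. By rank correlation (exact permutation) no gene was called for either level. Unadjusted, 14 of the 36 and 2905 of all genes passed with the melanoma level, and 1 and 1146 with the T cell level.

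These melanoma correlations also depend on how the libraries are scaled. After median-of-ratios scaling the median r of the 36 genes was 0.22 with the melanoma level and -0.46 with the T cell level, beside -0.06 and -0.03 for all genes, and 30 of the 36 were still higher with melanoma. None of the 36 and no other gene was then called with the melanoma level, and 4 of the 36 had an unadjusted p under 0.05 (13.0% of all genes), of which Cenpa was negative (r = -0.89). With the T cell level 253 genes were called, none of them among the 36, and the 3 with an unadjusted p under 0.05 (Ccna2, Aurka and Rrm2) were negative, against 14.9% of all genes at that p in either direction. Within each group of 4 mice, where no test was run, the median r with the T cell level was -0.16 with tacrolimus and -0.71 with vehicle, and with the melanoma level 0.71 and 0.62. Over all genes the same medians were -0.14 and -0.35, and 0.50 and 0.36.

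**Figure D4:**
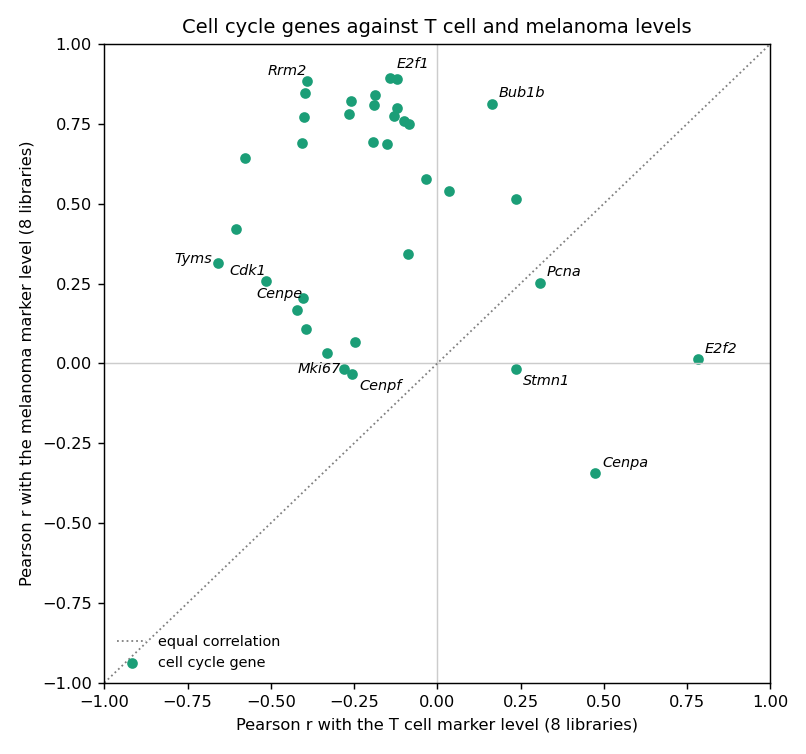
Pearson r over 8 libraries of each cell cycle gene with the T cell marker level (x axis) and with the melanoma marker level (y axis), both from FPKM as deposited, with no median-of-ratios scaling. For 32 of 36 genes the melanoma value is higher, and E2f2 stands alone at r = 0.78 with T cells.

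The 36 genes did not all move together from library to library. Over the 630 pairs of genes the median r was 0.51, 498 were above 0 and 110 above 0.8. The closest pair was Ccnb2 with Ube2c (r = 0.98), and Mki67 with Cenpf, Ccna2 with Aurkb and Rrm2 with Kif20a each had r = 0.97. The lowest was Tyms with E2f2 at -0.78. Against the mean standardized profile of all 36, r was above 0.8 for 14 genes, among them Tpx2 (0.96), Ccna2, Ccnb1 and Aurkb (each 0.95) and Cdc20 (0.94). It was below 0.2 for 5: Mki67, Cenpf, E2f2, Cenpe and Cenpa. These correlations are from values as deposited and were not recomputed after scaling. No median or share over pairs of all genes was taken, so whether the 36 are closer than other genes is not known. Each gene is also part of the mean profile it was set against. The correlations share the 8 libraries and their scaling and are given as descriptions.

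Promoter sequence was examined because many mitotic genes share CHR and CCAAT elements. A RefSeq window of 250 bases before the annotated start (GRCm38.p6) was found for 28 of the 36 genes. Searched on both strands, the CHR letters TTTGAA were in 28.6% of these genes against 18.3% of all genes with a window. The letters CCAAT were in 78.6% against 37.5%. E2F forms (TTTCCCGC, TTTCGCGC, TTTGCCGC or TTTGGCGC) were in 3.57% against 2.16%. No 2 different motifs overlapped. Shown are the windows of the 3 genes closest to the mean profile that held both CHR and CCAAT letters in a single window, 5′ to 3′ on the strand of the gene. Capitals mark CHR, CCAAT and E2F letters, or their reverse complements.
Cdc20, chr4:118437344-118437593, minus strand: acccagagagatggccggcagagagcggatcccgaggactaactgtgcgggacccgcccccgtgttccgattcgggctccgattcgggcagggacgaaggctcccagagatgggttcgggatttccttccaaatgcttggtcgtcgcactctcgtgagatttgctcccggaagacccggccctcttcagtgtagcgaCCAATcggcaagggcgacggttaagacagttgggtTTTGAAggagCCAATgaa
Kif11, chr19:37376132-37376381, plus strand: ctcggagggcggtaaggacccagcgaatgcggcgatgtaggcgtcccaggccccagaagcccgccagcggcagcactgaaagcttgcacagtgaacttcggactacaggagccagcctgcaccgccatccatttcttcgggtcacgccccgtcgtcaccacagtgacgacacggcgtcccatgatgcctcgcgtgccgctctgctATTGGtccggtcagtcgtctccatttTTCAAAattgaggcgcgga
Cdk1, chr10:69352913-69353162, minus strand: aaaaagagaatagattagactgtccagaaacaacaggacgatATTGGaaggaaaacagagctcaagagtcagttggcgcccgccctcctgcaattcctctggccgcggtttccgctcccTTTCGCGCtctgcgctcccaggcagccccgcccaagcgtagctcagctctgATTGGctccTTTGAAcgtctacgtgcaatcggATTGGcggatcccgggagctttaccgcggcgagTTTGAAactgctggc
The 8 genes with the CHR letters had a median r of 0.61 with the mean profile, and the 20 without had 0.76. A match is a match of letters, and no binding was measured.

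Related cell cycle genes outside the 36 were read from lists written from textbook knowledge. Of 109 such genes 106 were tested, 77 had a lower and 29 a higher mean with tacrolimus, and 0 were called (limma). Unadjusted, 10 were lower at a p under 0.05 and 0 higher, and 5 had separated groups, all lower, against 15.8% and 10.2% of all genes. Their median difference was -0.12. After median-of-ratios scaling 40 had a lower and 66 a higher mean, 4 were lower at an unadjusted p under 0.05 (E2f4, Rbl2, Incenp and Anapc2) and 6 higher (Kifc1, Knl1, Spc25, Cdkn1a, Smc4 and Ckap2), and the median was 0.10. These were named after their values were seen. Counts of lower means in the lists below are given first as deposited and then after median-of-ratios scaling, which moves the median of all genes from -0.19 to 0.01.

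E2f4, the repressive E2F of resting cells, averaged 21.3 ± 4.48 FPKM in tacrolimus and 33.9 ± 4.70 FPKM in vehicle mice (SD, n = 4), a difference of -0.65 with an adjusted p of 0.193 (limma). Rbl2 (p130), its partner in the DREAM repressor complex, was at 7.26 ± 1.52 and 12.7 ± 3.25, a difference of -0.73 with an adjusted p of 0.195 (limma). Both had separated groups, and the differences were -0.43 and -0.52 after median-of-ratios scaling. Of the 15 tested genes of the RB, E2F and DREAM list 14 had a lower mean, then 7, with a median of -0.15, then 0.01. Among CDK inhibitors 4 of 7 were tested, 2 with a lower mean, then 0, with a median of -0.01, then 0.20. Among kinase partners and G1 regulators 9 of 12 had a lower mean, then 6, with a median of -0.20, then 0.01. Cdk6, a kinase partner of D-type cyclins, had a difference of -0.82, then -0.60. The smallest adjusted p in that list was 0.379 as deposited, and that of Cdk6 after scaling was 0.666 (limma).

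In the mitotic lists, Incenp, the scaffold that binds Aurkb, Birc5 and Cdca8, averaged 33.4 ± 4.05 FPKM in tacrolimus and 47.7 ± 7.12 FPKM in vehicle mice, a difference of -0.50 with separated groups and an adjusted p of 0.195 (limma), then -0.27. The motor Kifc1 had a difference of 0.56, then 0.76, with overlapping groups as deposited. Of 22 motor and cytokinesis genes 11 had a lower mean, then 5, with a median of -0.01, then 0.20. Of 18 spindle checkpoint and anaphase-promoting complex genes 13 had a lower mean, then 7, with a median of -0.13, then 0.09, and Anapc2, a core subunit of that complex, had separated groups (difference -0.64, then -0.43). Knl1, a kinetochore scaffold of the same list, had the highest difference in it, 0.71, then 0.91, with overlapping groups as deposited. Of 14 condensin, centromere and chromatin genes 9 had a lower mean, then 2, with a median of -0.01, then 0.21. Of 21 nucleotide supply and S phase genes 19 had a lower mean, then 13, with a median of -0.27, then -0.04, and the nucleoside kinase Dck had separated groups (difference -0.44, then -0.22).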

How the data were processed

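RNA of cells labelled as sorted CD8+ tumor lymphocytes was sequenced from 8 mice, 4 per group, 1 library each, with groups and replicate numbers taken from the sample titles. The submitters' processing notes name HISAT2 2.1.0, RSEM 1.3.1, DESeq2 1.24.0 and the build GRCm38.p6, with no role given. The deposited files hold 1 value per gene and name no unit; from the values they are FPKM, already scaled by the authors for gene length and library size. Between 82.8% and 85.2% of low values lay within 0.15 steps of whole fragments, against 30% for evenly spread values, and from these steps the depth of a library was estimated at 15740000 to 19800000 fragments. Counts were not recovered for most genes, so no count model was used.

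Genes reaching an FPKM of 1 in 4 or more libraries were compared as log2(FPKM + 1) with limma 3.58.1 (R 4.3.3, trend) and Benjamini-Hochberg adjustment over all 13032, at an adjusted p under 0.05, two-sided. This scale understates changes of low genes. Correlations used Python 3.11.15 and scipy 1.17.1, with exact two-sided p over all pairings of libraries. Both steps were tried on simulated data in which genes varied independently, so differences that genes share within a library were not covered. The members and gene lists were chosen with earlier results of these data known. Named are all members, the 2 genes of each related list with the smallest unadjusted p (some by counts only), the 10 genes most like the mean profile and fixed markers. Symbols and coordinates are from GENCODE M21 (GRCm38); 346 identifiers had no symbol. Alternatives were other pseudocounts, filters and scalings, marker-level covariates, a replicate block and each library left out.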

Additional observations from a re-analysis of the deposited data

Results flagged for a closer look

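In each group of 4 the highest and the lowest value of every cell cycle gene were compared with the nearest other value, and 6 of 72 groups held a library whose gap, as a share of the group's range, exceeded Dixon's 95% critical value. Chance flags about 1 in 20 groups. Vehicle replicate 4 stood above the other vehicle libraries for Mki67, at 9.71 FPKM against 4.27 to 4.94, and for Cenpe, at 7.39 against 2.61 to 3.12. Vehicle replicate 2 stood above the others for Cdca8, at 53.89 against 34.57 to 36.24. Tacrolimus replicate 4 stood above the others for Tpx2, at 22.89 against 17.52 to 18.09, and for Hmmr, at 17.07 against 11.97 to 12.69. Tacrolimus replicate 1 stood below the others for Tyms, at 56.98 against 76.19 to 78.06.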

How the results depend on the processing

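No cell cycle gene was called under any alternative run. The median difference of the 36 genes, -0.10 as reported, was 0.12 under median-of-ratios and 0.12 under upper-quartile scaling. It was 0.07 with the melanoma level and -0.26 with the T cell level as covariate, beside -0.11 and -0.28 for all genes. With each library left out it ranged from -0.16 to 0.03, positive without vehicle replicate 2, and nearer 0 without tacrolimus replicate 1 (-0.04) or 3 (-0.04). Of all genes tested, 0 were called in the reported fit, 349 with the melanoma level as covariate, 121 with the replicate block, and 0 to 1 with each library left out (1 without vehicle replicate 1). Under median-of-ratios and upper-quartile scaling, Rrm1 went to 0.0020 and 0.00058, Ccnd3 to 0.015 and 0.014, and Top2a to 0.22 and 0.22. Top2a was 0.10 with the melanoma covariate and between -0.11 and 0.086 with each library left out. Under median-of-ratios scaling the median r was -0.46 with the T cell level and 0.22 with the melanoma level. The cause of these shifts was not tested. Of the other values recomputed, 237 were counted as unchanged. For single genes this meant the same direction and side of the threshold, and for counts an equal or similar count. The median difference had to move by less than the SD between replicates (0.20). Median correlations had to move by less than a standard error from leaving out each library (0.27 for T cells, 0.22 for melanoma). A median could change sign and still be counted, as the median difference did without vehicle replicate 2. Alternatives for the related genes were chosen after seeing the data. The stricter filter on low values left 34 of the 36 genes. Same-numbered libraries had correlations of deviations of 0.21, 0.28, -0.02 and -0.02, so the numbers were not taken as pairs; replicates 1 and 2 correlated best with their own number and 3 and 4 did not. With the block, 0 cell cycle genes were called. With 4 mice a group, the standard errors of the 36 differences were 0.15 to 0.28, which limits what could be detected.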

Other observations

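The deviations of the 36 genes from their means followed transcript length in some libraries. Across the 36 genes, Spearman's rho between a gene's deviation and its longest annotated transcript was 0.54 in vehicle replicate 4, 0.41 in tacrolimus replicate 1 and -0.53 in vehicle replicate 2. Across 11635 protein-coding genes the values in the same libraries were 0.18, 0.13 and -0.14. The protein-coding value farthest from 0 was -0.22, in tacrolimus replicate 3, where the 36 genes had 0.01. For the tacrolimus minus vehicle difference they were 0.18 in the 36 genes and 0.02 in the protein-coding genes. Genes are not independent replicates, these are descriptions, and a part of length in the differences was not tested. The longest transcripts among the 36 are those of Cenpf (11130 bases), Mki67 (10061) and Cenpe (7910), the genes with the 3 highest differences.

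The 10 genes outside the list whose values over the 8 libraries were most like the mean profile of the 36, by Pearson r, were Vti1b, Ppic and Ahcy (each 0.98), Xlr3b, Emc8, Tusc3, Emc6 and Ramp2 (each 0.97), and Cops4 and Fam114a1 (each 0.96). Vti1b was at 76.2, 82.5, 79.7 and 98.4 FPKM with tacrolimus and 74.0, 102, 83.1 and 86.5 with vehicle. Its highest value, like that of 27 of the 36 genes, was in vehicle replicate 2 as deposited (11 of the 36 after median-of-ratios scaling).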
